A study of Mus musculus with 4 samples.

Results

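One microarray of microRNAs (miRNAs) is described here, that of the small intestine of Tlr3+/+ mice without treatment at 0 hr, as an account of which miRNAs gave signal in unperturbed tissue. It is 1 of 4 arrays of a study of mice with and without Toll-like receptor 3, a sensor of double-stranded RNA. The other arrays held intestine of Tlr3-/- mice at 0 hr, and of Tlr3+/+ and Tlr3-/- mice 6 hr after 10 Gy of total body gamma-irradiation. Each array held RNA pooled from 3 mice, and the sources used here do not give strain, age or the stretch of intestine. All 1096 probes with a mouse miRNA name were taken from the 3136 spots of the array and ranked by net signal, the raw intensity minus the mean of the blank spots. With 1 array there are no replicates, so no difference was tested, and the precision of all values is limited by the array number.

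A miRNA is cut from a hairpin whose arms can both give a short RNA, and one arm usually accumulates while the other, called the star strand on this array and marked with an asterisk, is mostly lost. Bases 2 to 8 of a miRNA, the seed, pair with target mRNAs, so miRNAs with the same seed share many targets. In the gut, miR-192, miR-194 and miR-215 are known from the epithelium, the miR-200 family maintains epithelial character by repressing the Zeb factors, and miR-143 and miR-145 are known from smooth muscle and other mesenchymal cells. The RNA came from whole tissue, so fewer cells of a type and less RNA per cell cannot be told apart. Probes also differ in how well they bind and label their targets, so ranks and shares below are of signal and not of molecules.

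The mature sequences of the brightest miRNAs are shown first, because their seeds group the bright probes and because some of them share letters beyond the seed. They were taken from RefSeq (GRCm38.p6) and run 5′ to 3′, with the seed in capitals.
miR-3968: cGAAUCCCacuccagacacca
miR-5100: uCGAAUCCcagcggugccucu
miR-194: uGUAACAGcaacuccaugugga
miR-215: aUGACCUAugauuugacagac
miR-192: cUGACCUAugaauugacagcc
miR-690: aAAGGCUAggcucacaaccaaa
miR-5126: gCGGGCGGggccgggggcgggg
miR-2137: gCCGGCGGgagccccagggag
miR-200b: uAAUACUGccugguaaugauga
miR-200c: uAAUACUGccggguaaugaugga
miR-200a: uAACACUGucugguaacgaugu
miR-141: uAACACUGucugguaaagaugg
let-7a: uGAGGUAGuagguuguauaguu
let-7d: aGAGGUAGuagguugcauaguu
let-7c: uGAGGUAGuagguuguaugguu

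Among these, miR-215 and miR-192 share the seed UGACCUA and differ at 3 of 21 positions. miR-200b and miR-200c carry AAUACUG, and miR-200a and miR-141 carry AACACUG. let-7a differs from let-7c at 1 position and from let-7d at 2 positions, and whether the probes tell such close sequences apart is not stated in these sources, so separate signals within the let-7 family are uncertain. The same holds for miR-200a and miR-141, which differ at 2 positions, and for miR-215 and miR-192. miR-3968 and miR-5100 have different seeds by position but share the unbroken run CGAAUCCCA, offset by 1 base. The letters CGAAUCC, searched on the strand of the miRNA only and chosen after these sequences had been seen, occur in 2 of 1679 mature mouse miRNAs of the RefSeq table (0.119%), which are these 2. The same letters occur in the T arm of many transfer RNAs. Transfer RNAs end in CCA, as do miR-3968 and 1.37% of the mature miRNAs searched, but not miR-5100. Whether either probe's signal has to do with transfer RNA was not tested.

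Signal was concentrated in few probes. Of the 20 brightest, 5 belonged to the epithelium list, 7 were miRNAs with late numbers (miR-720 included), and the others were neither. The summed net signal of all mouse probes was 68129. The brightest probe held 11.97% of it, the 5 brightest 42.1%, the 10 brightest 53.6%, the 20 brightest 66.0% and the 50 brightest 82.3%. Only 9 probes were needed for 50% of the signal and 85 for 90%. A raw intensity above 1000 was reached by 11 probes and one above 100 by 94. The other probes lay in a long dim tail, with a median raw intensity over all mouse probes of 27.2 against a blank mean of 24.5.

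The brightest probe was that of miR-3968, with a raw intensity of 8182. It was followed by miR-194 at 5941, miR-215 at 5461, miR-5100 at 5350 and miR-690 at 3866. Epithelial miRNAs thus stood at ranks 2 and 3, between probes of miRNAs that are seldom described. The next places were taken by miR-192 at 2224, miR-720 at 1738, miR-143 at 1389, miR-21 at 1365, a miRNA linked to growth and inflammation, and miR-5126 at 1257. The second 10 began with miR-145 at 1234, miR-709 at 973, miR-200b at 941, let-7a at 919 and miR-200a at 884. They ended with miR-5097 at 798, miR-5109 at 765, let-7d at 751, miR-2137 at 727 and let-7c at 697. Just outside the 20 brightest lay miR-3960 at 662.

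Repeated control spots give the only measure of error on this array. The 8 spots of Spike Control 1 averaged 3491 ± 154.6 (SD) and the 8 of Spike Control 2 averaged 3061 ± 105, which pool to an SD of 0.057 in log2 units. Of the 20 steps from each rank to the next down to rank 21, 6 exceeded a 1.12-fold difference, which is 2 SD of a difference between single spots. These steps were those below miR-3968, miR-5100, miR-690, miR-192, miR-720 and miR-145. No step exceeded this spread within miR-194, miR-215 and miR-5100, within miR-143, miR-21, miR-5126 and miR-145, or from miR-709 to miR-3960. Only neighbours were compared, so the ends of such a run can differ by more, as do miR-709 at 973 and miR-3960 at 662. The spread covers spots of 1 probe on 1 array and leaves out mice, pools and differences in probe binding.

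**Figure D1:**
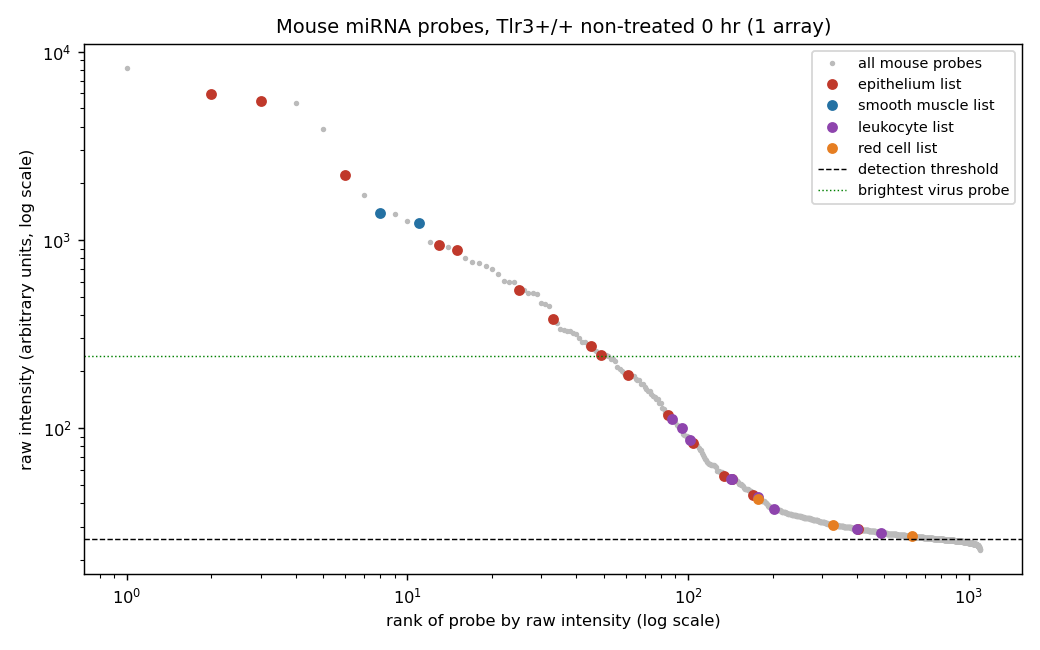
Raw intensity of the 1096 mouse probes against their rank, both on log scales, with the epithelium, smooth muscle, leukocyte and red cell lists in colour; the dashed line is the detection threshold (25.7) and the dotted line the brightest virus probe (241). Epithelial and smooth muscle probes reach the top 20, while leukocyte probes begin at rank 88 and red cell probes at rank 178.

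Most detected probes were dim and overlapped in level with virus probes. A probe was counted as detected above the blank mean plus 2 SD, a raw intensity of 25.7, and 779 of 1096 mouse probes passed (71.1%). Of these, 629 (80.7%) lay under 2 times the threshold. The array also carries 39 probes for miRNAs of mouse cytomegalovirus and a murine gammaherpesvirus, viruses that no label mentions, and 25 of them passed too (64.1%). The negative control with the highest mean averaged 26.2 ± 2.34 (SD, 8 spots), also above the threshold. The brightest virus probe read 241, the next 59.8. The 51 mouse probes above the brightest virus probe held 82.7% of the summed signal, and those above the next held 93.6%.

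**Figure D2:**
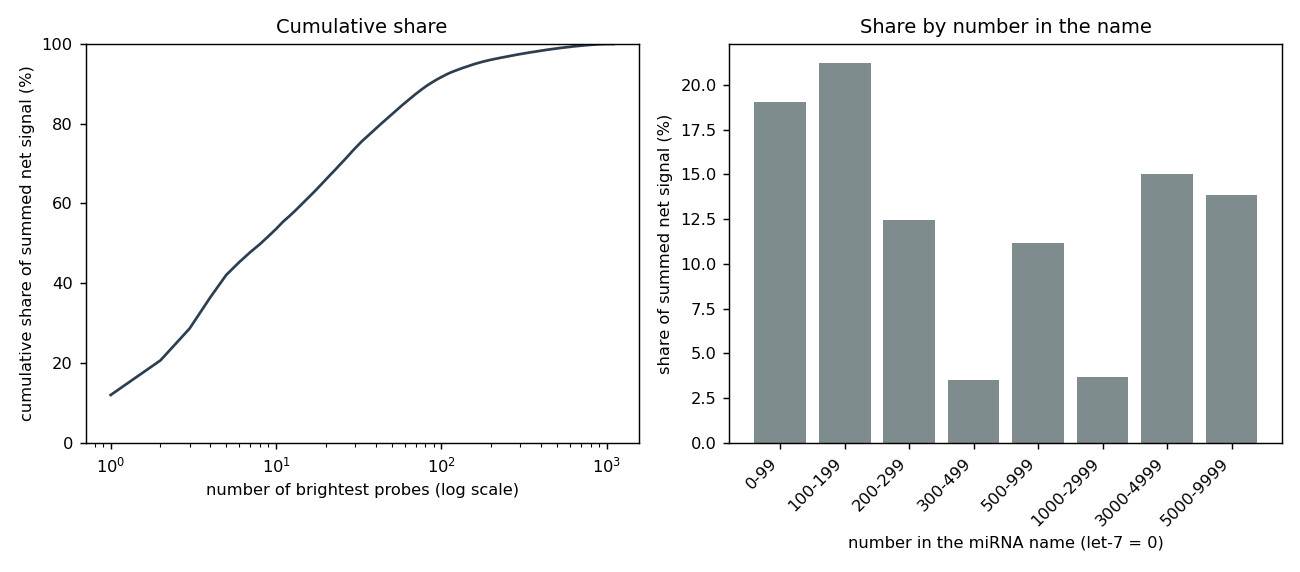
Left, cumulative share of the summed net signal (%) against the number of brightest probes on a log scale; right, bars of the share of summed net signal (%) by the number in the miRNA name. The left curve passes 50% at 9 probes, and the bars are 15.05% for numbers from 3000 to below 5000 and 13.8% for numbers from 5000 up.

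The epithelium list gave 25.1% of the summed signal from 16 probes, the highest share of the 11 cell type lists. A share also depends on the number of probes in a list, and the lists were chosen with earlier results of these data known. The median raw intensity was 260 for the epithelium list and 1312 for the 2 smooth muscle probes. All 16 epithelium probes passed the detection threshold, beside 71.1% of mouse probes as a whole. Of the 16, 9 lay above the brightest virus probe, beside 51 of all 1096 mouse probes. miR-194, miR-215 and miR-192 alone held 19.9% of all mouse signal, with 8.68%, 7.98% and 3.23%, and 79.4% of the list. These 3 come from a pair of hairpin clusters. On chromosome 1, plus strand, mature miR-194 of Mir194-1 lies at chr1:185313325-185313346 and miR-215 at chr1:185313610-185313630, with starts 285 bp apart and within the bounds of Iars2, an isoleucyl-tRNA synthetase gene. On chromosome 19, plus strand, miR-194 of Mir194-2 lies at chr19:6264658-6264679 and miR-192 at chr19:6264857-6264877, within no other gene of the RefSeq table. The probe of miR-194 cannot tell its 2 hairpins apart, since their mature sequences are the same.

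The miR-200 family gave 4.25% of the signal from 5 probes. miR-200b read 941, miR-200a 884, miR-200c 543, miR-141 379 and miR-429 274. All 5 thus lay above the brightest virus probe, a level that 51 of all 1096 mouse probes passed. Mature miR-200b lies at chr4:156055685-156055706, minus strand, with miR-200a starting 774 bp from it and miR-429 another 995 bp on, all within the bounds of the non-coding gene Gm13648. miR-200c lies at chr6:124718324-124718346, minus strand, with miR-141 starting 407 bp away.

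Other epithelial miRNAs were dimmer. miR-31, expressed in epithelia and raised in regenerating ones, read 246, and miR-203, which limits proliferation in skin, read 191. miR-148a read 117 and miR-375, known from endocrine cells of pancreas and gut, read 83.4. miR-96 at 55.9, miR-182 at 53.7 and miR-183 at 29.1, which form 1 cluster known from sensory epithelia, spanned ranks 134 to 403. miR-802 read 44.0. The 16 members thus ran over a wide range, and the last 4 named lay below the second brightest virus probe.

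Smooth muscle was represented by miR-143 and miR-145 with 2.00% and 1.78% of the signal, 3.78% together. Their raw intensities of 1389 and 1234 put them at ranks 8 and 11. The 16 probes of the epithelium list had 6.63 times the net signal of these 2 probes and 53.0 times that of the 9 leukocyte probes. miR-133a and miR-133b, known from striated and some smooth muscle, read 36.0 and 41.2. miR-1a, which falls outside the fixed lists because the array does not use the bare name miR-1 and was looked up for that reason, read 47.3. Probes of striated muscle read 23.4 to 25.9, with 1 of 5 detected, beside 71.1% of mouse probes. The 1 detected was miR-206 at 25.9, next to the threshold. miR-208a, miR-208b and miR-499, which lie in myosin heavy chain genes, did not pass it.

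Blood cell miRNAs held a small share of the signal. The 9 leukocyte probes held 0.473% of the signal and the 3 red cell probes 0.038%, together 0.511%, and all 12 were detected beside 71.1% of mouse probes. The median raw intensity was 53.5 for the leukocyte probes and 30.7 for the red cell probes, against 27.2 for all mouse probes. None of the 12 lay above the brightest virus probe, beside 51 of all 1096 mouse probes. miR-142-5p, known from all blood lineages, read 112, miR-223 of myeloid cells 99.9 and miR-146a, induced by NF-kB, 87.0. These 3 were the only probes of the 12 above 3 times the detection threshold, a level that 109 of all 1096 mouse probes passed. miR-142-3p read 53.9, miR-150 of mature lymphocytes 53.5, miR-342-3p 42.8 and miR-146b 37.3. miR-155 of activated lymphocytes and macrophages read 29.1 and miR-342-5p 27.8. Of the red cell list, miR-451 read 42.3, the probe shared by miR-486 and miR-3107 30.7, and miR-144, which is transcribed with miR-451, 26.6.

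Vessel and stroma miRNAs held shares near that of the leukocyte list. miR-126-3p, an endothelial miRNA, read 329 at rank 38, and its partner arm miR-126-5p 52.9. The probe shared by miR-199a-3p and miR-199b, miRNAs of fibroblasts, read 181, miR-199a-5p 103.2 and miR-214 40.0. The endothelium list held 0.488% of the signal and the fibroblast list 0.368%, of which 62.4% came from the probe that names both miR-199a-3p and miR-199b. Defining miRNAs of neighbouring organs and of neurons read 30.3 or below. Of their probes, 4 of 4 for neurons, 2 of 3 for acinar pancreas and 0 of 1 for liver were detected, beside 71.1% of mouse probes. Dim members of other lists, such as miR-183 and miR-155 at 29.1, lay in the same range. miR-122 of liver read 24.8 and did not pass the threshold, and miR-216a, miR-217 and miR-216b of acinar pancreas read 27.4, 26.1 and 24.4. The neuronal miR-128, miR-124, miR-9 and miR-137 read 30.3, 28.0, 26.9 and 26.3. Bright epithelial and smooth muscle probes go with the label of small intestine, with the liver and acinar pancreas probes at 27.4 or below. This is no test of the label, because the lists were chosen with earlier results of these data known.

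**Figure D3:**
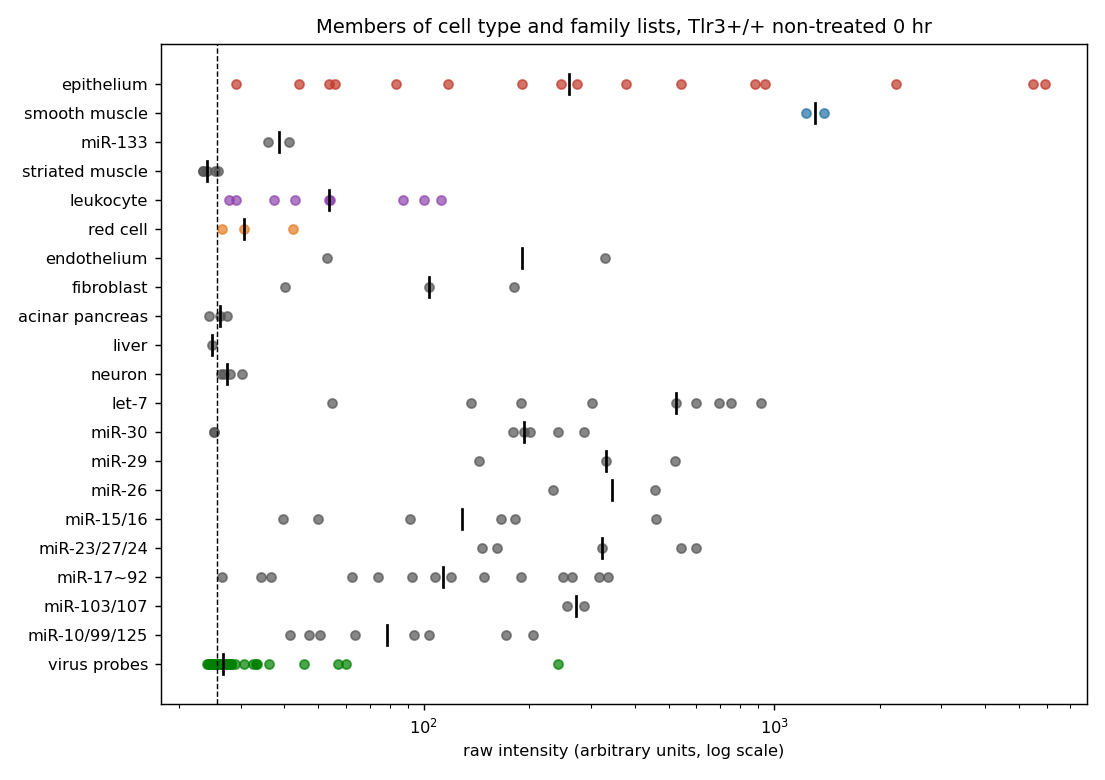
Raw intensity on a log scale of every member of the 11 cell type lists and 9 family lists, and of the 39 virus probes in the bottom row; each point is 1 probe, black bars are medians and the dashed line is the detection threshold (25.7). The smooth muscle pair (1234 and 1389) and the upper epithelium members lie far right of the virus probes, while liver, acinar pancreas and neuron members lie at 30.3 or below.

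Families expressed in most tissues made up a further part of the signal. The 9 family lists held 17.3% of it. The let-7 list, miRNAs that repress growth genes and rise with differentiation, held 5.80% from 9 probes, from let-7a at 919 to miR-98 at 54.5. Seeds were grouped only for those of the 60 brightest probes that had a matched sequence. Of these, let-7a, let-7b, let-7c, let-7d, let-7f and let-7g carry the seed GAGGUAG. The list members let-7i, let-7e and miR-98, at ranks 64, 80 and 140, were outside this range.

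The miR-17~92 list, from clusters known to promote cell division, gave 2.51% from 14 probes, with miR-17 at 334, miR-19b at 316, miR-20a at 264 and miR-92a at 62.3. The miR-23, miR-27 and miR-24 list gave 2.42%, with miR-23a at 599, miR-23b at 541, miR-24 at 321.5, miR-27a at 162 and miR-27b at 147. These miRNAs come from hairpins of shared clusters.

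The miR-30 family gave 1.44%, with 5 members from 180 to 287, while both miR-384 arms fell short of the threshold at 25.2 and 25.1. The miR-29 family, which represses collagen genes, gave 1.35% with miR-29a at 521, miR-29b at 332 and miR-29c at 143.5. The miR-15/16 list gave 1.24%, with miR-16 at 460 and miR-195 at 39.6 at its ends. The miR-26 pair gave 0.941% (457 for miR-26a and 233 for miR-26b), miR-10, miR-99 and miR-125 members 0.851%, and miR-103 and miR-107 0.725% (286 and 257), a pair that differs at 1 of 23 positions.

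miRNAs with a number of 1000 or above in their name, and miR-720, held 35.1% of the summed signal with 27.8% of the probes. Numbers are mostly given in order of registration. miR-720 has a lower number and was put in this group by name, with 2.52% of the signal. The share detected was 221 of 305 (72.5%) against 558 of 791 (70.5%) of the other probes, and the median raw intensity 27.4 against 27.2. Their share came from a few probes, with 85.1% of it in the 10 brightest. After miR-3968, miR-5100, miR-720, miR-5126, miR-5097, miR-5109 and miR-2137, which were among the 20 brightest of all and held 27.4% of the signal, came miR-3960 at 662, miR-5105 at 607 and miR-2861 at 514. Sequences were matched for 5 of these 10 late miRNAs. Their share of G and C bases was 100% in miR-5126, 94.7% in miR-2861, 85.7% in miR-2137, 61.9% in miR-5100 and 57.1% in miR-3968. The early miR-194, miR-215 and miR-192 had 45.5%, 38.1% and 47.6%. A sequence was matched for 286 of 779 detected probes (36.7%), under the 80% set for such a check, so a relation of base composition to signal over the array is void. Among the remaining bright names, miR-690 and miR-709 carry numbers from 500 to below 1000, a range that held 8.64% of the signal with miR-720 left out.

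Without the late miRNAs and miR-720, the early miRNAs by themselves divide as follows. The epithelium list was 38.6% of the early signal, and its members miR-192, miR-194 and miR-215 were 30.6% of the early signal. The let-7 list was 8.93%, smooth muscle 5.82%, the miR-17~92 list 3.87%, leukocyte 0.729% and red cell 0.059%.

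Star strands made up 328 of the mouse probes (29.9%) and 4.50% of the summed signal. Of them 65.9% passed the threshold, against 563 of 768 other probes (73.3%) and 64.1% of the virus probes. The median raw intensity was 26.6 for star probes and 27.6 for the others. Above 3 times the threshold stood 13 star probes and 96 others. The 10 brightest star probes held 50.98% of the star signal.

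A main and a star probe of the same hairpin were both present for 273 hairpins. Both were detected in 140, only the main arm in 73, only the star arm in 35, and neither in 25. Among the 140, the main arm had the higher net signal in 96 and the star arm in 44, with a median ratio of main over star of 1.90. Among those of the 140 whose main probe was at or below 3 times the threshold, 59 had the higher signal in the main arm and 44 in the star arm. Of all 273 pairs, 54 had a main probe above 3 times the threshold, and the star was detected in 37 of them. In 50 of the 54 the main arm was at least 10-fold higher or the star was not detected, a count that choosing pairs by a bright main arm favours.

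The pairing needs the same name with and without the asterisk, which left 55 star probes unpaired. Among them were miR-194-1* at 50.5 and miR-194-2* at 33.7, beside miR-194 at 5941. Of the 273 pairs formed, the 5 with the brightest main arm were those of miR-215, miR-192, miR-143, miR-21 and miR-145. miR-215 read 5461 and miR-215* 171, a net ratio of 37.1, and miR-192 read 2224 and miR-192* 55.3, a ratio of 71.5. miR-215* was the fourth brightest star probe of the array. For the mesenchymal pair, miR-143 read 1389 and miR-143* 31.1, a ratio of 207.6, and miR-145 read 1234 and miR-145* 29.8, a ratio of 230. miR-21 read 1365 and miR-21* 29.1, a ratio of 290. All 5 star probes lay below the brightest virus probe, and the ratios of miR-143, miR-145 and miR-21 rest on star signals of 4.62 to 6.57 above the blank mean. Smaller ratios among main probes above 3 times the threshold, singled out after their values were seen, were 1.75 for miR-375 (83.4 against 58.1 for miR-375*), 5.598 for miR-30e (180.009 against 52.3 for miR-30e*) and 8.60 for miR-31 (246 against 50.2 for miR-31*).

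Some hairpins had a bright star probe. Of the 11 pairs with a star probe above 3 times the threshold, 10 had more net signal in the star, which choosing pairs by a bright star favours, and the exception was miR-215. miR-149* was the brightest star probe, at 364 against 33.4 for miR-149, and stood at rank 34 of all mouse probes. miR-328* read 274 against 34.8 for miR-328, and miR-326* 233 against 30.6 for miR-326. The next were miR-3072* at 157 against 76.1, miR-3102* at 143.01 against 28.9, miR-92b* at 128.1 against 42.1 and miR-211* at 125.9 against 27.007 for the arm without asterisk. miR-677* at 120 against 26.1, miR-3090* at 82.5 against 28.98 and miR-3077* at 81.5 against 28.3 completed the 10. Apart from miR-3072, whose main arm read 76.1, the main probes of these hairpins lay at 42.1 or below, under the second brightest virus probe at 59.8. Of the 10 star probes, only miR-149* and miR-328* lay above the brightest virus probe at 241. Of the 10 brightest star probes, miR-128-2* at 90.03 had no probe named miR-128-2 with which to pair.

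**Figure D4:**
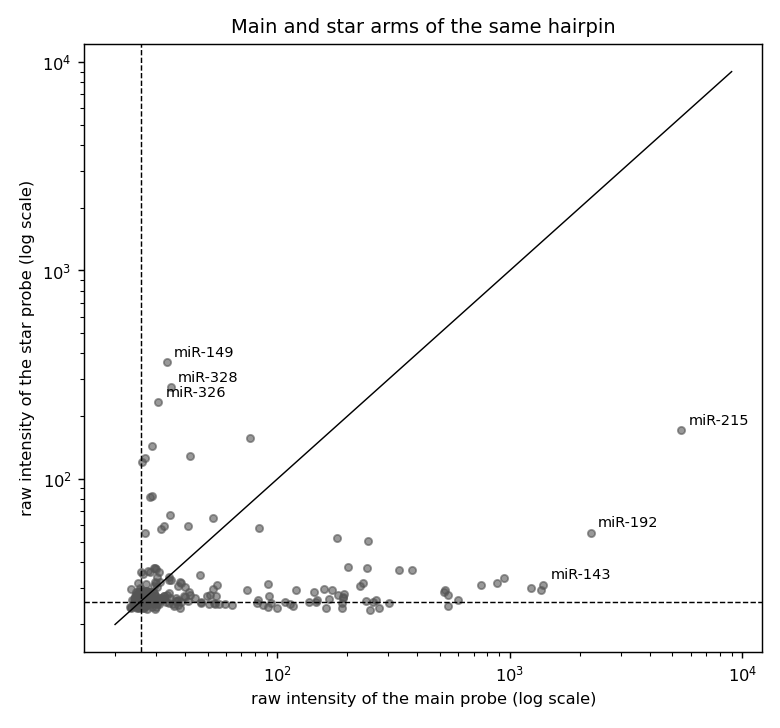
Raw intensity of the star probe against that of the main probe for 273 hairpins, both on log scales; the solid line marks equal intensity and dashed lines the detection threshold (25.7). Bright points lie along the lower right edge (miR-215, miR-192, miR-143) or along the upper left edge (miR-149, miR-328, miR-326), and few are bright in both arms.

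For 116 further hairpins the array names the arms 5p and 3p. Both were detected in 57, with the 5p arm brighter in 20 and the 3p arm in 37, and 17 had neither arm detected. In the blood cell miR-142 the 5p arm read 112 and the 3p arm 53.9, a net ratio of 2.97. In miR-126 the 5p arm read 52.9 and the 3p arm 329, a net ratio of 5p over 3p of 0.093. miR-125a likewise had less in the 5p arm, 63.7 against 103.2 for the 3p arm (a net ratio of 0.498).

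The same ranking was made on each of the other arrays by itself. They differ from this one in genotype or treatment, with 1 array each. Values are therefore set side by side as a description only, and no difference between arrays was tested. Of the 20 brightest probes of Tlr3+/+ intestine at 0 hr, 19 were among the 20 brightest of Tlr3-/- intestine at 0 hr, 17 among those of Tlr3+/+ at 6 hr and 18 among those of Tlr3-/- at 6 hr. miR-3968, miR-194, miR-215 and miR-5100 held the first 4 places on all 4 arrays, with miR-3968 first on 3 of them and miR-194 first in Tlr3-/- at 6 hr. The number of probes that held 50% of the signal was 9 here and 9, 10 and 10 there. The epithelium list held 25.1% here and 25.5%, 21.4% and 25.01% there, and smooth muscle 3.78% here and 4.41%, 3.32% and 3.54% there, in the same order. Other shares follow in that order, of which the red cell share rests on 3 probes that read 42.3 or less here. The red cell list held 0.038% here and 0.219%, 0.149% and 0.087% there, star strands 4.50% here and 4.87%, 7.63% and 5.86% there, and late miRNAs 35.1% here and 33.8%, 41.8% and 36.5% there.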

How the data were processed

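Total RNA was labelled with Hy5 and hybridised to 1-colour arrays, per the labels' protocols; the sources used here do not name scanner, software or array maker. The authors deposited a raw intensity for each spot, and, per the file headers, also its background-subtracted and globally normalized intensity. Their background-subtracted intensity equals raw minus the mean of 1636 of 1818 blank spots (5% left out at each end), and 0 of the 1096 mouse probes differed in which cells they filled from the rule of blank mean plus 2 SD. Shares start from raw intensity minus that mean, with values below 0 set to 0, in Python 3.11.15 with pandas 2.3.3. Probes naming several miRNAs (12) count once. Factors per array do not alter shares within an array. The 20 lists come from general knowledge, as does the arm behind a bare name in RefSeq (71 names). Named were the 20 brightest probes and rank 21, list members, the 10 brightest star and late probes, the 5 pairs with the brightest main arm and the 10 brightest star probes (above 3 times the threshold) that exceeded their main arm, the brightest virus probe and the brightest negative control. The members and lists were chosen with earlier results of these data known. The share calculation was run on 20 simulated arrays built from the net signals of this array, which checks the calculation and not the shares. Alternatives used raw intensity, the blank median, normexp (nec of limma 3.58.1, R 4.3.3, offset 0), other thresholds and other sets of probes summed.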

Additional observations from a re-analysis of the deposited data

Results flagged for a closer look

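A probe for a miRNA of mouse cytomegalovirus, mcmv-miR-M23-1-5p, read 241 on the array of non-treated Tlr3+/+ intestine, above all but 51 mouse probes, although no label mentions an infection. The other 38 virus probes read 59.8 or less on this array. On the arrays of Tlr3-/- intestine the same probe read 207 without treatment and 250 after irradiation, and on the irradiated Tlr3+/+ array 225. Its part in the signal of mouse probes was not tested.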

How the results depend on the processing

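Each of 32 results was recomputed under the alternatives, 267 values in all, of which 154 moved by less than 1 SD of repeated control spots (counts: by less than 1.5 times). The number of detected mouse probes, 779, was 109 at 3 times the threshold and 51 at the brightest virus probe. With no blank subtraction, the 1, 10 and 20 brightest probes held 8.62%, 38.7% and 47.9%, 24 probes made 50%, epithelium held 18.4%, smooth muscle 2.76%, leukocyte 0.572%, red cell 0.105%, star strands 11.7% and late miRNAs 33.0%. Summing only probes above 3 times the threshold gave 12.9%, 58.0% and 71.4% for the brightest probes, 26.96% for epithelium, 4.08% for smooth muscle, 0.357% for leukocyte, 0% for red cell and 2.76% for star strands. Without miR-3968 the values were 9.87%, 49.3% and 62.5% for the brightest probes, 28.5% for epithelium, 4.29% for smooth muscle, 0.538% for leukocyte, 0.043% for red cell, 5.11% for star strands and 26.3% for late miRNAs. Without the late miRNAs they were 13.4% for the brightest probe, 38.6% for epithelium, 5.82% for smooth muscle, 0.729% for leukocyte, 0.059% for red cell and 5.43% for star strands. Leaving out probes that name several miRNAs gave 0.029% for red cell. At 3 times the threshold 1 hairpin had both arms detected, 0 had the star at least as high, and the ratio was 37.1, while with no subtraction the median ratio was 1.09. These shifts follow from which signal is summed. Signal over background limits the dim lists and star ratios, which depend on the blank level. No paired analysis was possible because each group has 1 array and the labels carry no replicate numbers.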
